A study of Rattus norvegicus with 7 samples.

Results

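The bone and mineralization genes described here are 10 genes, Runx2, Sp7, Dlx5, Bmp2, Alpl, Bglap, Ibsp, Spp1, Sparc and Mgp, taken by gene symbol from the 17147 symbols of the expression table of each library. Mgp belongs to the set because it was already known to be lower on ISB-P, so its difference between the films is described without a test. The cells were rMSCs, primary mesenchymal stem cells grown out of the bone marrow of a young male Sprague-Dawley rat, and 20000 of them were put on each surface. The surfaces were ISB-P, a polyurethane copolymer of polycaprolactone and propoxylated isosorbide, PCL, the plain polycaprolactone, both as films of 16 mm across, and TCP, bare tissue culture plastic. RNA was taken after 4 h in growth medium, with no osteogenic supplement in the labels, and gave 3 libraries for each film and 1 for TCP. All groups thus share cells, medium and time, and differ in the surface. The study speaks of triplicate experiments, but the sources used here do not say whether these were separate cultures, so p-values measure the spread between these libraries, which may be technical. The question asked of the data here is whether the bone genes of the cells differed between the surfaces this early after attachment.

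Bone formation runs through a chain of transcription factors. Dlx5 and Runx2 commit mesenchymal cells to the bone lineage, and Sp7 (osterix) acts after Runx2 in the same chain. Secreted BMP ligands such as Bmp2 drive it through receptors and Smad proteins. The matrix is then laid down and mineralized: Alpl is the phosphatase that frees phosphate and removes the inhibitor pyrophosphate, Sparc (osteonectin) binds collagen and calcium, Spp1 (osteopontin) and Ibsp (bone sialoprotein) are acidic, integrin-binding proteins, Bglap (osteocalcin) is a vitamin K-dependent protein of mature osteoblasts, and Mgp (matrix Gla protein) is a related vitamin K-dependent inhibitor of calcification.

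Values were read as FPKM, fragments scaled to transcript length and to the size of the library, so levels of different genes can be set side by side per length. Of the 10 genes of the mesenchymal marker list, 9 were at 1 FPKM or more in 3 or more film libraries. The list was led by Thy1 at 925 to 1210 FPKM over the 7 libraries, and the remaining gene, Lepr, was at 0.386 to 1.29. Of all 17147 symbols, 9467 met this limit. So did 8 of the 9 genes of the smooth muscle and pericyte list, but 0 of the 7 endothelial genes. The limit thus cannot tell mesenchymal cells from smooth muscle cells or pericytes, and the mesenchymal label was not tested further. The osteocyte list, 5 genes of the cells embedded in mineralized bone, summed to 0.755 to 1.30 FPKM, with Sost and Fgf23 listed at 0 in every library. A listed 0 cannot be read as absence in these files. Col1a2, the partner chain of type I collagen, and Crtap, which helps to modify collagen, were also listed at 0 in every library, while Col1a1 was at 3868 to 10406 FPKM.

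The members spanned a wide range of levels, in the order Sparc, Spp1, Mgp, Runx2, Alpl, Dlx5, Sp7, Bmp2, Ibsp and Bglap by their mean on PCL. Sparc was at 3068 ± 113 FPKM (SD, n = 3) there, Spp1 at 765 ± 61.0, Mgp at 157 ± 19.9 and Runx2 at 25.1 ± 3.93. Alpl (8.03 ± 1.09), Dlx5 (7.25 ± 1.05) and Sp7 (7.06 ± 1.51) lay within each other's spread, and Bmp2 (5.68 ± 0.340) lay within the SD of Sp7. Ibsp and Bglap were at 0.420 ± 0.0154 and 0.230 ± 0.158. Sparc, Spp1 and Mgp were therefore abundant, Runx2, Alpl, Dlx5, Sp7 and Bmp2 were at intermediate levels, and Ibsp and Bglap were listed at low values at 4 h.

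**Figure D1:**
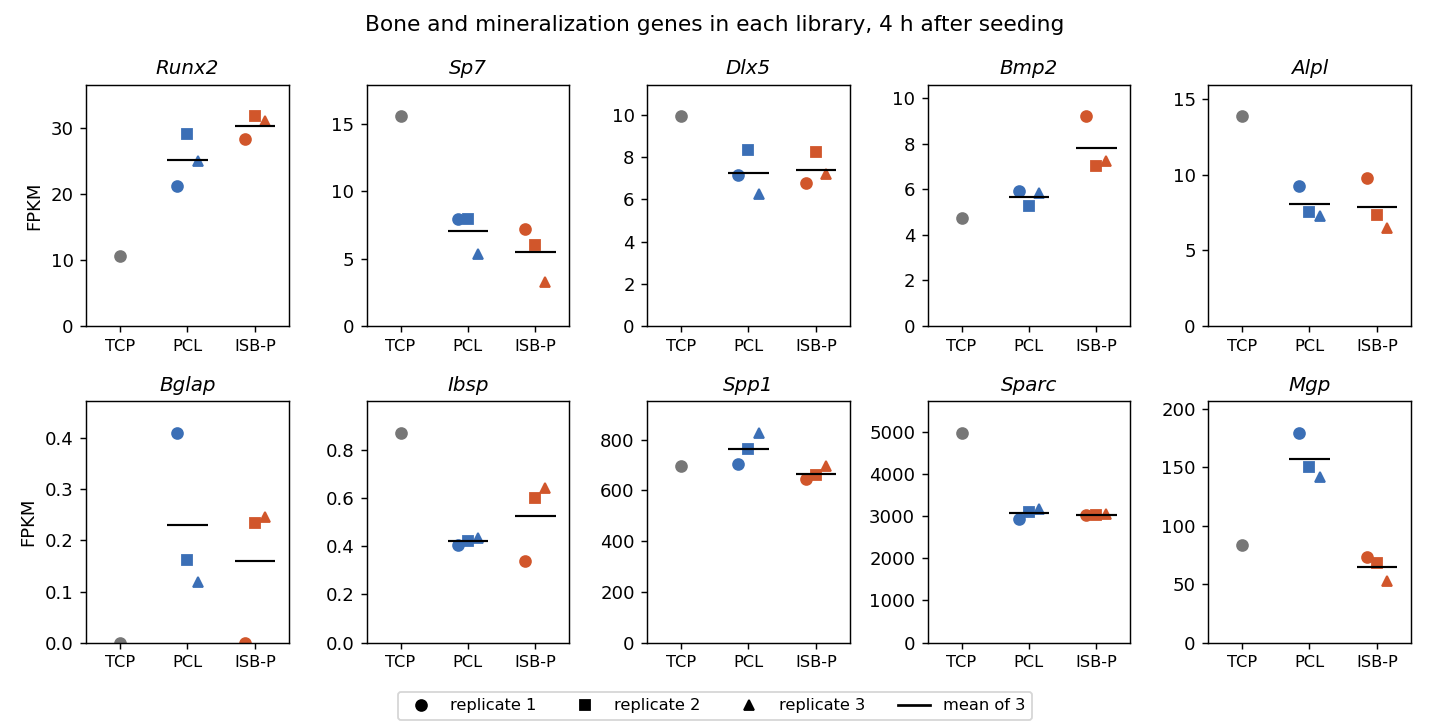
FPKM of the 10 genes in each of the 7 libraries, on linear axes from 0, with a symbol for each replicate number and a bar at the mean of the 3 libraries of a film. Mgp and Bmp2 separate the films in opposite directions, with Mgp at 52.5 to 72.8 FPKM on ISB-P and 141 to 179 on PCL, while Sparc lies between 2943 and 3162 on both films.

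ISB-P was compared with PCL by limma on log2(FPKM + 1) across 9467 genes, those that reached 1 FPKM in 3 or more of the 6 film libraries, two-sided and with Benjamini-Hochberg adjustment over all of them. Of the members 8 met this limit, and Bglap and Ibsp did not. Among the 7 tested members other than Mgp, 0 had an adjusted p under 0.05 in limma, against 1.72% of all tested genes, and 0 passed the study's thresholds of level, fold and unadjusted p, which 0.687% of all tested genes did. Sp7, Dlx5, Bmp2 and Alpl were below the study's level of 16, read here as FPKM, in every film library, so they could not pass its thresholds. In limma 1 of the 7 (Bmp2) had an unadjusted p under 0.05, as had 12.1% of all tested genes. Bmp2 (ISB-P above) and Spp1 (ISB-P below) separated the films without overlap, which is 2 of 7 members, and 17.7% of all tested genes did so (8.17% with ISB-P above and 9.54% below). Same-numbered ISB-P and PCL libraries varied together, so the fit was repeated with the replicate number as a block. With the block 4 of the 7 had an adjusted p under 0.05, Runx2 and Bmp2 higher on ISB-P and Sp7 and Spp1 lower, where 24.4% of all tested genes did (13% higher and 11.4% lower). These 4 differences were small, at 0.40 or less in size on the log2 scale.

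Runx2, the master regulator of the osteoblast lineage, was at 21.2, 29.1 and 25.1 FPKM in PCL replicates 1, 2 and 3, at 28.3, 31.8 and 31.0 in ISB-P replicates 1, 2 and 3 and at 10.5 on TCP. Every ISB-P library was above the PCL library of its number, by a factor of 1.33, 1.09 and 1.24, but PCL replicate 2 was above ISB-P replicate 1, so the films overlapped. The log2 fold change of ISB-P over PCL was 0.27 (standard error 0.15, 95% confidence interval -0.09 to 0.63, adjusted p = 0.592 in limma). With the replicate block the interval was 0.09 to 0.46 and the adjusted p 0.0400, and it was 0.0623 with quantile normalization added (log2 fold change 0.22), 0.141 with scaling to a common total (0.16) and 0.311 without replicate 1 (0.21). RefSeq lists a pair of promoters for Runx2 in the GRCr8 rat assembly. The 250 bases before the more 5′ start, chr9:23664808-23665057 on the plus strand, are shown because they hold a Runx recognition motif, AACCACA, in a gene whose own product binds that motif. Capitals mark the motif, whose last base lies 71 bases before the start.
Runx2: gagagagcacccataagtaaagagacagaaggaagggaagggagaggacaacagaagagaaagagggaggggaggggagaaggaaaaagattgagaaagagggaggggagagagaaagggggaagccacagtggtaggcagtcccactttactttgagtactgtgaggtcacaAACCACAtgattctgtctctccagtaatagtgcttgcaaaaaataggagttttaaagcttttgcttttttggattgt
Searched on both strands, the motif was in 4.59% of 33469 RefSeq promoter windows of this length. It had no match in the 250 bases before the other Runx2 start, nor in those of Alpl, Ibsp, Spp1 or Sparc. A match is a description of the letters only.

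Sp7, which acts after Runx2, was at 7.94, 7.92 and 5.32 FPKM on PCL, at 7.16, 6.01 and 3.29 on ISB-P and at 15.6 on TCP. Replicate 3 was the lowest on both films, and the films overlapped. The log2 fold change was -0.35 (standard error 0.27, 95% confidence interval -0.98 to 0.29, adjusted p = 0.780 in limma). Compared within replicate numbers, ISB-P was at 0.902, 0.759 and 0.619 of PCL. With the block the adjusted p was 0.0376 (interval -0.58 to -0.12). It was 0.0623 without replicate 2 (log2 fold change -0.34) and 0.0501 without replicate 3 (-0.24). Without the block, the log2 fold change was -0.07 when ISB-P replicate 3 was left out.

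Dlx5 did not separate the films. It was at 7.16, 8.34 and 6.25 FPKM on PCL and at 6.80, 8.24 and 7.22 on ISB-P, with a log2 fold change of 0.03 (95% confidence interval -0.30 to 0.37, adjusted p = 0.967 in limma), and an adjusted p of 0.808 with the block.

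Bmp2, apart from Mgp, had the largest difference between the films in this fit. It was at 5.92, 5.29 and 5.82 FPKM on PCL, at 9.21, 7.04 and 7.26 on ISB-P and at 4.73 on TCP. All 3 ISB-P libraries were above all 3 PCL libraries. The log2 fold change was 0.40 (standard error 0.14, 95% confidence interval 0.08 to 0.72), with an unadjusted p of 0.0225 and an adjusted p of 0.278 in limma. With the block the adjusted p was 0.0151 (interval 0.19 to 0.60), and it was 0.0855 without replicate 1 (log2 fold change 0.32). Replicate 1 had the highest ratio of the films, at 1.56 against 1.33 and 1.25.

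Alpl and Sparc, with Dlx5, had the differences nearest to 0. Alpl was at 9.27, 7.56 and 7.26 FPKM on PCL and at 9.75, 7.35 and 6.45 on ISB-P (log2 fold change -0.04, 95% confidence interval -0.45 to 0.37, adjusted p = 0.968 in limma). Its replicates differed from each other by more than the films did. Sparc was at 2943, 3100.2 and 3162 FPKM on PCL and at 3037, 3028 and 3044 on ISB-P (log2 fold change -0.01, 95% confidence interval -0.22 to 0.19, adjusted p = 0.975 in limma). The value of Sparc depended on the scaling: its log2 fold change was -0.21 with quantile normalization (adjusted p = 0.415 in limma, 0.0573 with the block) and -0.13 with a common total (0.645 and 0.134).

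Spp1, one of the most abundant matrix genes, was at 705, 762 and 827 FPKM on PCL, at 644, 659.8 and 695 on ISB-P and at 697 on TCP. The highest ISB-P library was just below the lowest PCL library. The log2 fold change was -0.20 (standard error 0.11, 95% confidence interval -0.46 to 0.06, adjusted p = 0.601 in limma), and ISB-P was at 0.914, 0.866 and 0.841 of PCL within replicate numbers. With the block the adjusted p was 0.0475 (interval -0.33 to -0.06). It was 0.112 without replicate 1 (log2 fold change -0.23) and 0.261 without replicate 2 (-0.19). Quantile normalization and a common total gave larger differences, of -0.32 and -0.31, with adjusted p of 0.0206 and 0.00873 with the block and 0.287 and 0.220 without it. Macrophages are another known source of osteopontin. The macrophage marker list summed to 45.2 to 51.8 FPKM on PCL and 46.6 to 51.9 on ISB-P, so the films overlapped. Its members moved both ways with the block in limma. Lyz2, its most abundant gene, had a log2 fold change of 0.27 (adjusted p = 0.637, 0.0299 with the block), and Cd14 was lower in each ISB-P library than in any PCL library, as Spp1 was, with -0.42 (adjusted p = 0.175, 0.0066 with the block). The other tested genes, Cd68, Csf1r and Tyrobp, passed in neither fit, and Cd163 was listed at 0. The list's part in the values of Spp1 was not tested.

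**Figure D2:**
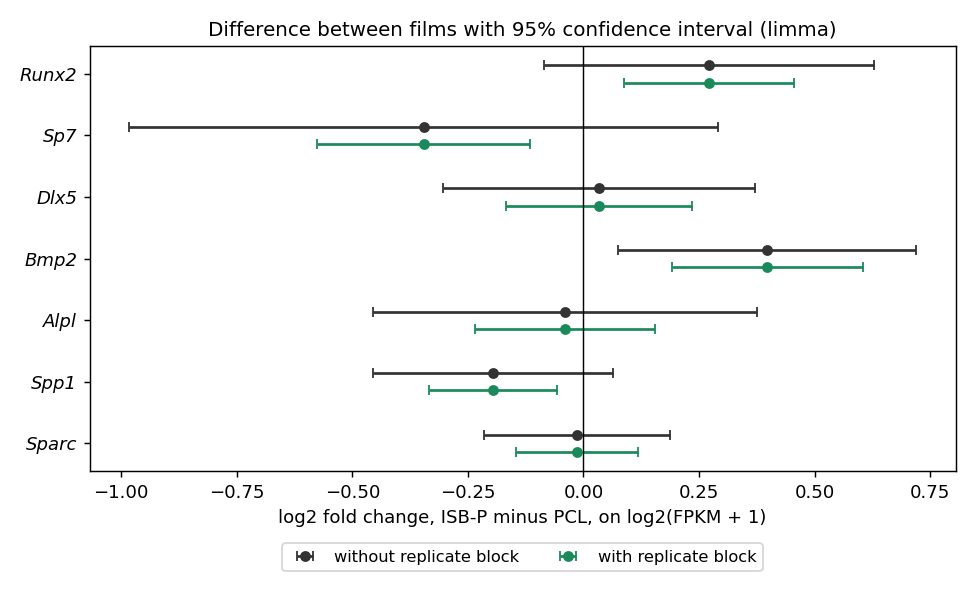
Log2 fold change of ISB-P over PCL for the 7 tested members other than Mgp, with 95% confidence intervals from limma, without the replicate block in black and with it in green. The intervals narrow with the block, and those of Runx2, Sp7, Bmp2 and Spp1 then leave 0 outside, while Dlx5, Alpl and Sparc stay across 0.

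The two-sided exact permutation p was 0.1 for Bmp2 and for Spp1, the smallest p that 3 against 3 libraries allow. It was 0.2 for Runx2, 0.5 for Sp7, 0.9 for Dlx5 and Alpl and 0.7 for Sparc.

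Bglap and Ibsp stayed close to the lower end of the table. Bglap was at 0.411, 0.162 and 0.119 FPKM on PCL, at 0, 0.235 and 0.246 on ISB-P and listed at 0 on TCP. Ibsp was at 0.404, 0.421 and 0.435 FPKM on PCL, at 0.337, 0.599 and 0.639 on ISB-P and at 0.869 on TCP. In both genes the films overlapped, and the exact permutation p was 0.6 and 0.4. The depth of the libraries is unknown, so no detection limit can be given for these levels. The 250 bases before the Bglap start, chr2:176137319-176137568 on the minus strand of GRCr8 (RefSeq), are shown as the counterpart of the Runx2 window, since they too hold AACCACA, in capitals, with its last base 113 bases before the start, while the gene itself was at or near 0.
Bglap: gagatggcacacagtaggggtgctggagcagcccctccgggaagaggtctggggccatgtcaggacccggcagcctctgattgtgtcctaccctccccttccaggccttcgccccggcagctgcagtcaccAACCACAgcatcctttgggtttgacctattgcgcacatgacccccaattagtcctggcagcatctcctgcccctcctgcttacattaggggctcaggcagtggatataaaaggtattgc
The window also holds the TATA motif TATAAA, 10 bases before the start, which 12.9% of the windows have on either strand.

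Mgp was at 179, 149.8 and 141 FPKM in PCL replicates 1, 2 and 3, at 72.8, 68.3 and 52.5 in those of ISB-P and at 83.1 on TCP. All 3 ISB-P libraries were far below all 3 PCL libraries, and TCP lay between the films, closer to ISB-P. The log2 fold change was -1.27 with a standard error of 0.17. Within replicate numbers ISB-P was at 0.406, 0.456 and 0.372 of PCL. Other scalings, another pseudocount and leaving out libraries left the log2 fold change between -1.39 and -1.13. The block, TCP in the fit and the filters cannot change this estimate, so they are no check of it. The tested genes whose log2 levels followed those of Mgp most closely over the 7 libraries were Cyp1b1, a cytochrome P450 induced through the aryl hydrocarbon receptor (Pearson r = 0.997), and Uck1 (0.992), Gpt2 (0.984), Ndst2 (0.982) and Slc9a5 (0.979). The mean of Cyp1b1 was 734 FPKM on PCL and 324 on ISB-P, and TCP had 397.

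Mgp is known from cartilage and from vascular smooth muscle as well as from bone marrow stroma. The chondrocyte marker list, 6 of whose 8 genes were in the files, summed to 76.9 ± 7.08 FPKM (SD, n = 3) for PCL, 64.1 ± 8.18 for ISB-P and 83.2 for TCP. Its most abundant gene was Acan (aggrecan), while Col2a1, which defines cartilage, was at 0.993 to 1.82 FPKM. The smooth muscle and pericyte list summed to 2982 ± 88.0 on PCL and 3058 ± 296 on ISB-P, most of it Tagln. Without the block 0 of its 8 tested genes had an adjusted p under 0.05 in limma (1.72% of all tested genes had), and with it 4 were lower on ISB-P (11.4% of all tested genes were): Cspg4 (log2 fold change -0.41), Smtn (-0.40), Lmod1 (-0.43) and Des (-0.32). Acan was at 75.9, 64.6 and 63.5 FPKM on PCL and 64.1, 51.9 and 49.8 on ISB-P (adjusted p = 0.544 in limma, 0.0151 with the block). Their part in the difference of Mgp was not tested, and in bulk RNA fewer cells of a type and less RNA per cell cannot be told apart.

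Before they act, Mgp and Bglap need the vitamin K cycle, in which Ggcx carboxylates their glutamates and Vkorc1 recycles the vitamin. All 9 genes of the list of Gla proteins and vitamin K enzymes were tested, and 0 had an adjusted p under 0.05 in limma, with the block or without it (0 at an unadjusted p under 0.05), against 24.4%, 1.72% and 12.1% of all tested genes, with a median log2 fold change of 0.07 against 0.02 over all tested genes. Ggcx was at 57.3 ± 2.79 FPKM on PCL and 55.3 ± 3.58 on ISB-P, and Vkorc1 at 75.5 ± 2.22 and 67.9 ± 5.57. Its homolog Vkorc1l1 had a log2 fold change of 0.16, the protein S gene Pros1 0.17, Gas6 -0.08, Prrg1 -0.15, Prrg4 0.14 and Calu, an inhibitor of the carboxylase, 0.13. Nqo1, a quinone reductase that can also reduce vitamin K, was at 1349 ± 105 FPKM on PCL and 1425 ± 181 on ISB-P against 183 on TCP.

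Of the list that governs phosphate and pyrophosphate, 13 of 18 genes in the files were tested, and 1 fell on ISB-P in limma, as did 0.623% of all tested genes. With the block 1 was higher and 2 were lower, against 13% and 11.4%. Ankh, which carries the mineralization inhibitor pyrophosphate or its precursor out of the cell, was at 241, 265 and 262 FPKM on PCL, at 158, 169 and 159 on ISB-P and at 295 on TCP. The films did not overlap. In limma the adjusted p was 0.0445 and, with the block, 2.45e-04, for a log2 fold change of -0.66 (standard error 0.11). The call of Ankh did not hold when any single film library was left out. Fam20c, a kinase that phosphorylates Spp1 and other secreted matrix proteins, was at 51.2, 42.6 and 39.9 FPKM on PCL and 41.2, 34.4 and 24.0 on ISB-P (log2 fold change -0.44, adjusted p = 0.528 in limma, 0.0120 with the block). Phospho1, a phosphatase of matrix vesicles that starts mineral formation, was low but higher in each ISB-P library, at 3.38, 3.66 and 2.62 FPKM against 2.34, 2.10 and 2.04 on PCL (log2 fold change 0.41, adjusted p = 0.234 in limma, 0.0198 with the block). It was named after its values were seen. Slc20a2, a phosphate transporter, had a log2 fold change of -0.13. The median of the list was -0.02.

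Among 27 tested genes of the BMP pathway, 1 was called, and it was lower on ISB-P, as were 0.623% of all tested genes. Smad9, a receptor-activated Smad, was at 1.44 ± 0.0521 FPKM (SD, n = 3) on PCL, and at 0.532, 0.543 and 0.576 on ISB-P (adjusted p = 0.0193 in limma, for a log2 fold change of -0.66 with a standard error of 0.09). It passed the limit of 1 FPKM through its PCL libraries alone, so a gene of this kind had to differ, and its low level limits the reading. Its call was lost when any film library other than ISB-P replicate 3 was left out. Genes that BMP signals induce in many cells had log2 fold changes of both signs. Id1 and Id2 had log2 fold changes of 0.54 each and were above PCL in all 3 ISB-P libraries (adjusted p = 0.317 and 0.164 in limma, 0.0120 and 0.00212 with the block). Id3, the most abundant of the Id genes, had -0.09, Id4 had 0.30 and the inhibitory Smad6 and Smad7 had -0.11 each, and these 4, named after their values were seen, passed in neither fit. Bambi, a decoy receptor, had a log2 fold change of -0.59 (adjusted p = 0.132 in limma, 0.00133 with the block). With the block 4 of the 27 were higher and 5, Smad9 included, lower, against 13% and 11.4% of all tested genes, and the median was 0.02 in the fit without it.

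Other lists held no gene with an adjusted p under 0.05 in limma. The counts that follow stand against 12.1% of all tested genes with an unadjusted p under 0.05, and 13% higher and 11.4% lower with the block. Of 16 osteoblast factors tested, 3 had an unadjusted p under 0.05, and the block called 3 higher and 3 lower. Atf4, a factor of the amino acid response that osteoblasts need for collagen synthesis, was at 277, 308 and 315 FPKM on PCL and 421, 431 and 483 on ISB-P, with no overlap (adjusted p = 0.0834 in limma, 5.23e-04 with the block, for a log2 fold change of 0.57). Prrx1 had a log2 fold change of -0.34 (adjusted p = 0.470 in limma, 0.0077 with the block) and Runx1 of 0.31, which passed in neither fit. Of 16 genes for hormone and Wnt signals to osteoblasts, 4 had an unadjusted p under 0.05, and the block called 1 higher and 5 lower. Tmem119, a membrane protein that promotes osteoblast differentiation, was at 96.8, 79.1 and 74.7 FPKM on PCL and 66.7, 52.4 and 43.5 on ISB-P (log2 fold change -0.63, adjusted p = 0.222 in limma, 7.14e-04 with the block), Csf1 had -0.30 (0.358 and 0.0116) and Fgfr2 0.38 (0.278 and 0.0124). Of 16 genes of the bone collagen matrix, 0 had an unadjusted p under 0.05, and the block called 2 higher, Serpinh1, the collagen chaperone Hsp47 (log2 fold change 0.36, adjusted p = 0.538 without the block and 0.00903 with it), and Plod2, a lysyl hydroxylase (0.27, 0.908 and 0.0460). Col5a1 had -0.22, and Col1a2 and Crtap, listed at 0, were not tested.

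Relatives of the matrix members were mostly listed at low values or at 0. Of 10 genes of the SIBLING and SPARC families, 3 were tested and 0 passed (0 at an unadjusted p under 0.05), where 1.72% and 12.1% of all tested genes did. Fstl1 was at 733 ± 26.2 FPKM on PCL and 723 ± 31.8 on ISB-P, Smoc2 at 98.3 ± 3.66 and 92.0 ± 4.13, and Smoc1 had a log2 fold change of 0.04. Dspp and Spock3 were listed at 0 in all libraries, and Dmp1, Mepe, Sparcl1, Spock1 and Spock2 were below 1 FPKM in all of them. Over all 100 tested genes of these lists 0 were higher and 2 lower in limma, while 1.1% and 0.623% of all tested genes were, and with the block 11 were higher and 15 lower, against 13% and 11.4%. Smad9, 1 of the 2, passed the limit through PCL alone, so the count without it is 1, Ankh, and the 15 lower with the block include it too.

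**Figure D3:**
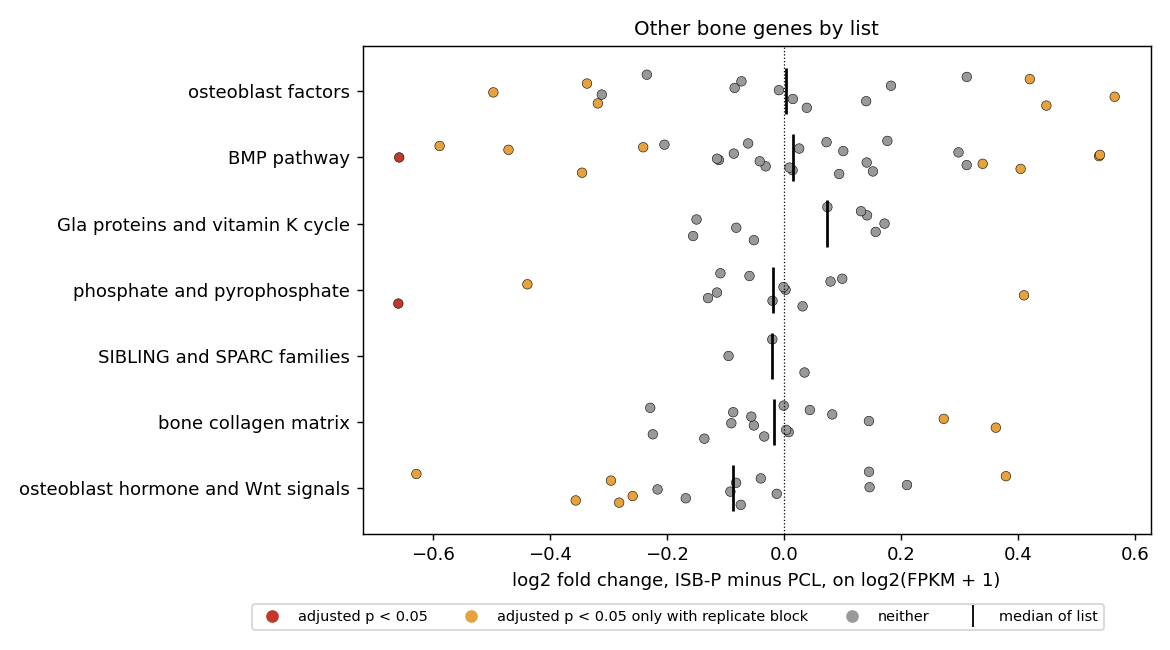
Log2 fold change of ISB-P over PCL for each tested gene of the other bone lists, with the list median as a black bar, red for an adjusted p under 0.05 in limma, and orange where only the fit with the replicate block reached it. The 2 red points, both near -0.66, are Ankh and Smad9, of which Smad9 passed the limit of 1 FPKM on PCL alone, and the list medians lie between -0.09 and 0.07.

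TCP is the common reference of such experiments, but it has 1 library here. The study gives its sequencing as replicated, other TCP libraries were not analysed here, and the labels do not say whether this library is a single culture or a pool, so values set against it have no replicate check and no test was made. Runx2 was higher on both films than on TCP, with the mean plus 1 FPKM at 2.27 times TCP on PCL and 2.72 times on ISB-P. Sp7, which acts after Runx2, went the other way, with TCP 2.05 times PCL and 2.55 times ISB-P. Runx2 and Bmp2 were above TCP in all 6 film libraries, as were 29.7% of all tested genes. Sp7, Dlx5, Alpl and Sparc were below it in all 6, as were 25.4%. TCP thus lay outside the range of the films for 6 of the 8 tested members, and for 55% of all tested genes. Past 2-fold above TCP were 8.98% of all tested genes on ISB-P and 5.56% on PCL, and past 2-fold below it 4.28% and 3.04%.

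Alpl was 1.64-fold and Sparc 1.62-fold higher on TCP than on PCL, on the scale with 1 FPKM added, and 1.68-fold and 1.64-fold higher than on ISB-P. Dlx5 was 1.33-fold and 1.30-fold higher. For these 3 genes the films were thus alike in their distance from TCP. Mgp and Spp1 were the members with all PCL libraries above TCP and all ISB-P libraries below it. For Mgp, PCL was at 1.88 times TCP and TCP at 1.28 times ISB-P, and for Spp1 these values were 1.10 and 1.05.

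**Figure D4:**
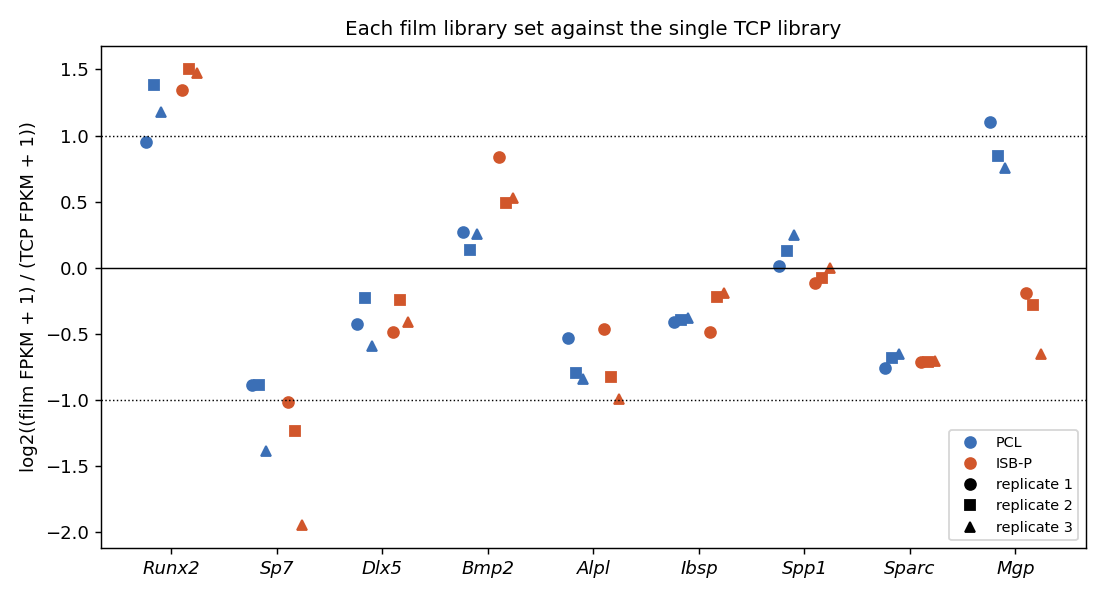
Log2 ratio of each film library to the TCP library, with 1 FPKM added to both, for the 9 members above 0 on TCP, with blue for PCL, orange for ISB-P and symbols for replicate numbers. Dotted lines mark 2-fold, which the means of Runx2 pass upwards and those of Sp7 downwards on both films.

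Markers of other cells moved with this comparison. The macrophage list, 13 of whose 14 genes were in the files, summed to 145.7 FPKM on TCP, against means of 49.0 for PCL and 49.8 for ISB-P, led by Lyz2 at 72.9 on TCP and 16.6 to 27.2 on the films. The adipocyte list of 7 genes summed to 131.8 FPKM on TCP, against 47.3 for PCL and 53.2 for ISB-P, led by Fabp4, with Adipoq at 1.58 on TCP. The osteoclast list, with 6 of 8 genes in the files, summed to 196 FPKM on TCP, against 128 for PCL and 129 for ISB-P, most of it Ctsk, and Calcr was at 0 on TCP and PCL. Its genes did not move together: Ctsk and Acp5 were highest on TCP, while Mmp9 was at 16.4 FPKM there and 25.6 to 29.5 on the films. The endothelial list summed to 1.39 FPKM on TCP, to 0.482 to 0.495 on PCL and to 0.778 to 0.867 on ISB-P. These endothelial sums did not overlap between the films, and this rested on Kdr, a gene of the list. Kdr was at 0.0583, 0.0819 and 0.0738 FPKM on PCL and 0.243, 0.365 and 0.355 on ISB-P. In the other genes of the list the films overlapped, with Emcn listed at 0 in every library. Of all tested genes 17.7% did not overlap. No gene of the endothelial list reached the limit for testing. The part of these marker lists in the differences from TCP was not tested.

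The genes whose log2 levels over the 7 libraries were most like those of the members called with the block were picked by Pearson's r. For Runx2 they were Eif5a, Cdkn2aipnl, Eaf1, Banf1 and Pigl (r of 0.985 to 0.991), all lower on TCP than on the films. For Sp7 they were Lgals3bp, Efemp2, Shc2, Tap1 and Furin (0.989 to 0.997), all higher on TCP. Bmp2 was followed by Ribc1, Hap1, Ccdc94, Tead1 and Lin37 (0.972 to 0.991), and Spp1 by Cdc14a, Shox2, Cpne2, Wdfy2 and Lzic (0.965 to 0.983). With 7 libraries that share replicate numbers and a surface, such values describe these libraries and nothing further.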

How the data were processed

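The 7 libraries were made with a TruSeq stranded mRNA kit. For each library the authors deposited a file of normalized values by gene symbol, read here as FPKM, since the submitters' processing notes list Cuffdiff 2.2.1 beside TopHat2 2.0.13, cutadapt 1.18, bcl2fastq 2.20.0.422 and the build rn5; the files name no unit, and the annotation is not given in the sources used here. FPKM sums ran from 539393 (TCP) to 660124 (ISB-P replicate 3) and are not depths, so the number of reads behind a value is unknown and precision rests on the 3 libraries of each film.

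Values were used as deposited, with log2(FPKM + 1), which understates changes of low genes. The fit was limma 3.58.1 (lmFit, eBayes with a trend) in R 4.3.3, on the 6 film libraries. The labels' replicate numbers pair the libraries: across genes, deviations from the film mean had r = 0.887, 0.431 and 0.867 between same-numbered libraries. The mean r was -0.356 otherwise, but deviations cancel out within a film, so this value largely follows from the same-numbered ones. A fit with the number as a block is therefore given where it changes a call. The numbers are those of the sample titles; the column headers of the PCL files number the libraries differently, and all values with the block rest on the titles. The code was tested on simulated data. Promoters came from the RefSeq table of GRCr8, which holds 6 of the 10 members. Figures were drawn with matplotlib 3.10.9.

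The members and lists were chosen with earlier results of these data known. Genes were named by rule: all members, called list genes and the 3 largest changes per list at 16 FPKM or more on either film. The rule also took all genes of the vitamin K and SIBLING/SPARC lists, and the 5 closest patterns. Markers and some, not all, of the block-only calls are named beyond it. Alternatives were other scalings, filters, pseudocount, TCP in the fit, the study's thresholds, each library left out, and, added after seeing the data, the block with each scaling or without a replicate number.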

Additional observations from a re-analysis of the deposited data

How the results depend on the processing

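Without the replicate block, the count of called members other than Mgp was 0 in each direction under every alternative. With the block 2 were higher (Bmp2 and Runx2) and 2 lower (Sp7 and Spp1). The block combined with upper quartile scaling left 2 and 2, and with quantile normalization or a common total 1 and 2. Leaving out both libraries of a replicate number under the block gave 0 to 2 higher and 0 to 1 lower. Of the other bone genes, the block called 11 higher and 15 lower. Without it, the 2 lower genes became 1 (Smad9) under upper quartile scaling, 0 with a minimum of 5 FPKM, 0 under the study's thresholds and 0 to 1 with a library left out. Members over 2-fold lower on PCL than on TCP went from 1 (Sp7) to 0 without PCL replicate 3.
Log2 fold changes close to 0 changed sign. That of Dlx5 was -0.069 with a common total, with or without the block, and ran from -0.056 to 0.13 with a library left out (lowest without PCL replicate 3, and -0.035 without ISB-P replicate 2). That of Alpl was 0.0058 with quantile normalization, with or without the block, and ran from -0.19 to 0.075 with a library left out (0.056 without PCL replicate 1). That of Sparc was 0.0077 without PCL replicate 3 and otherwise as low as -0.044 with a library left out, and it was -0.21 with quantile normalization and -0.13 with a common total. With the block and without replicate 3, Dlx5 was at -0.041, Alpl at 0.014 and Sparc at 0.0058. Runx2, Sp7, Bmp2, Spp1 and Mgp kept their sign in each alternative, though the block alone, TCP in the fit and the filters cannot change it. The cause of these shifts was not tested. Scaling to a common total moved the median log2 fold change of all genes from 0.02 to -0.09 and the calls from 104 higher and 59 lower to 70 and 70. Depth is unknown.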

Other observations

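Pdgfrb, a receptor of the mesenchymal marker list named here after its values were seen, was at 177, 167 and 154 FPKM in PCL replicates 1, 2 and 3, at 110, 97.4 and 86.6 on ISB-P and at 177 on TCP. The films did not overlap, with an adjusted p of 0.0510 in limma and 1.41e-04 with the replicate block, for a log2 fold change of -0.76 (standard error 0.14). Of the other tested genes of this list, Pdgfra was also lower without overlap (log2 fold change -0.29, adjusted p = 0.547 in limma, 0.0200 with the block). Cd44, Cxcl12, Itgb1 and Vcam1 had positive log2 fold changes and Eng, Nt5e and Thy1 negative ones, and these passed in neither fit. Of all tested genes 1.72% passed without the block and 24.4% with it. The mesenchymal list as a whole summed to 2636 ± 320 FPKM (SD, n = 3) on PCL and 2728 ± 475 on ISB-P.

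Dlx3, a homeobox factor related to Dlx5, was at 4.32, 5.09 and 3.82 FPKM on ISB-P, 3.05, 2.76 and 3.03 on PCL and 7.23 on TCP (log2 fold change 0.45, adjusted p = 0.173 in limma, 0.0174 with the block). It was named after its values were seen.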
